A study of Mus musculus with 12 samples.

Results

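A set of 10 genes of the autophagy pathway was followed in the kidney transcriptome of rhabdomyolysis-induced acute kidney injury (RIAKI). They are the receptor gene Sqstm1, the ATG8 genes Map1lc3a, Map1lc3b, Gabarap, Gabarapl1 and Gabarapl2, the upstream genes Ulk1, Becn1 and Wipi1, and the mitophagy receptor gene Bnip3. A gene was taken when its symbol in the count files was one of these names, which gave 10 of the 41740 genes in the files. All 10 were among the 13536 genes that reached 10 counts summed over the libraries and were tested. In RIAKI kidneys, Sqstm1 and Gabarapl2 were higher, Gabarapl1, Bnip3, Wipi1 and Ulk1 were lower, and the other 4 were not called.

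Autophagy wraps cell contents in a double membrane, the autophagosome, and delivers them to lysosomes for breakdown. The ULK1 kinase and the lipid kinase complex of Beclin 1 start the membrane, WIPI proteins bind the lipid made there, and small ATG8 proteins of the LC3 and GABARAP families are joined to it. Receptors such as p62, the product of Sqstm1, and BNIP3 bind both the cargo and an ATG8 protein. In the kidney, autophagy is known for clearing damaged mitochondria and protein aggregates from tubule cells under stress. Transcript levels were measured here, and neither protein levels nor autophagic flux were.

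The samples were 12 kidneys from male wild-type C57BL/6NCrl mice, 6 labelled rhabdomyolysis (RIAKI) and 6 labelled sham (control). RIAKI mice received 50% glycerol in the muscle of the left hind limb and controls received saline instead. Both groups had gone without drinking water for 19 h, were anesthetized with isoflurane, were given carprofen (Rimadyl) and were studied at 24 h, so water deprivation and the analgesic were shared by the controls. The study treated 10 mice per group, no age was given in the sources used here, and no label says outright that each library is a separate mouse. The p-values weigh the difference between the groups against the spread between these libraries. Each library was made from whole kidney RNA and read at the 3′ ends of transcripts, with a molecular index that lets each RNA molecule count once.

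Total exon counts were 1579157 to 1911871 per library in RIAKI and 1673329 to 2073959 in control. Mitochondrial ribosomal RNA took 34.1% to 58.9% of them in RIAKI and 36.6% to 52.7% in control, which left 648268 to 1145627 counts of other genes in RIAKI and 808365 to 1315209 in control. The kidney label fitted the files, as 15 of 15 proximal tubule markers reached the minimum count. The summed level of these markers was 741 to 1107 CPM (the usual scaled count unit, here on TMM library sizes) in RIAKI and 3834 to 4835 CPM in control. The 10 listed markers of injured tubule cells summed to 1683 to 2163 CPM in RIAKI and 137 to 164 CPM in control. In bulk tissue, fewer cells of a type and less RNA per cell cannot be told apart. The libraries numbered 1 and 2 in each group stood apart from the others on a principal component other than the one that separates the groups (9.25% of the variance), and the labels name no batch. In the 8 libraries without these numbers, a comparison chosen after seeing the data, 2 members were higher and 3 were lower. The same fit called 1847 genes higher and 1946 lower of the 12414 that it tested.

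The promoters of 8 of the 10 genes were found in RefSeq's table for GRCm38.p6. The 250 bases before the start in that table are shown for the 4 called members with the most counts, because these genes moved in opposite directions. That start can differ from the gene ranges given below, which the windows of Sqstm1, Gabarapl1 and Bnip3 enter by some bases. Distances of motifs are counted from the start in RefSeq's table. Lower case letters are sequence 5′ to 3′ on the strand of the gene, and capitals mark CACGTG, or ACGTG read on the other strand.
Sqstm1, chr11:50210821-50211070, minus strand: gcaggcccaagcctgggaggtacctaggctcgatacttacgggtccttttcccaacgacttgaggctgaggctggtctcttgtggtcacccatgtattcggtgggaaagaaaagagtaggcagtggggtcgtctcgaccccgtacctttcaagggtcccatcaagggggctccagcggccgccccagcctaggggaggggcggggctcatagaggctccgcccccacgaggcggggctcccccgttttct
Gabarapl2, chr8:111940453-111940702, plus strand: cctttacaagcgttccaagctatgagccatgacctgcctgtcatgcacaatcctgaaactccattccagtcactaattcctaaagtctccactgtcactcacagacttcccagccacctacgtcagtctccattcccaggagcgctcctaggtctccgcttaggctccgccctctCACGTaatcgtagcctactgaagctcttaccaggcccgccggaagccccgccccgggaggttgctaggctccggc
Gabarapl1, chr6:129532942-129533191, plus strand: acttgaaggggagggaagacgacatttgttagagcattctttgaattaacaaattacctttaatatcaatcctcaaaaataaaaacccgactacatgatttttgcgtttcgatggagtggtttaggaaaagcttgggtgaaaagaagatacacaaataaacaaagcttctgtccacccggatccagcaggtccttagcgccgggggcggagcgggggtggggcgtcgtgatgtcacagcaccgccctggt
Bnip3, chr7:138909507-138909756, minus strand: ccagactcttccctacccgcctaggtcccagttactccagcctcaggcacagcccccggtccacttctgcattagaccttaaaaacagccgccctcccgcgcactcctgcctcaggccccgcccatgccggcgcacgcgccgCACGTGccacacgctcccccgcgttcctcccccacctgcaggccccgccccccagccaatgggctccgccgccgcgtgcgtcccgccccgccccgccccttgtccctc
A set of 4 motifs was searched on both strands of these windows. They were CACGTG, the core of the element bound by TFEB and related factors, ACGTG, part of the element bound by hypoxia-inducible factors, TGACNNNGC, the core of the antioxidant response element bound by NRF2, and GTAAACA, bound by FOXO factors. CACGTG holds ACGTG on both strands, so the first motif is always also a match of the next. Bnip3 held CACGTG from 108 to 103 bases before its start, and CACGTG was found in 6.02% of 32851 windows of the same length. ACGTG was also found in Gabarapl2, on the minus strand 75 to 71 bases before the start, and in Gabarap, on the minus strand 108 to 104 bases before the start, against 16.6% of all windows. TGACNNNGC and GTAAACA, found in 10.2% and 3.17% of all windows, were not in any of the 8 member windows. A match is a description of letters in this window and says nothing about binding.

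In total, 2 of the 10 members were higher and 4 were lower in RIAKI (edgeR's quasi-likelihood test, adjusted p under 0.05), where 17.4% of all tested genes were higher and 18.8% were lower. The groups did not overlap in 5 members, against 19.3% of all tested genes. Of these 5, 2 lay higher in RIAKI (8.92% of all tested genes) and 3 lower (10.4%). Most members are well counted: 9 of 10 had a mean of at least 10 counts per library, and of the 7125 genes with such a mean, 25.1% were higher, 24.9% were lower and 29.9% did not overlap. The median log2 fold change of the members was −0.09, and that of all tested genes was −0.01. The exon reads of the members mapped almost entirely to a single place, with the lowest share, 99.5%, in Gabarapl2.

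**Figure D1:**
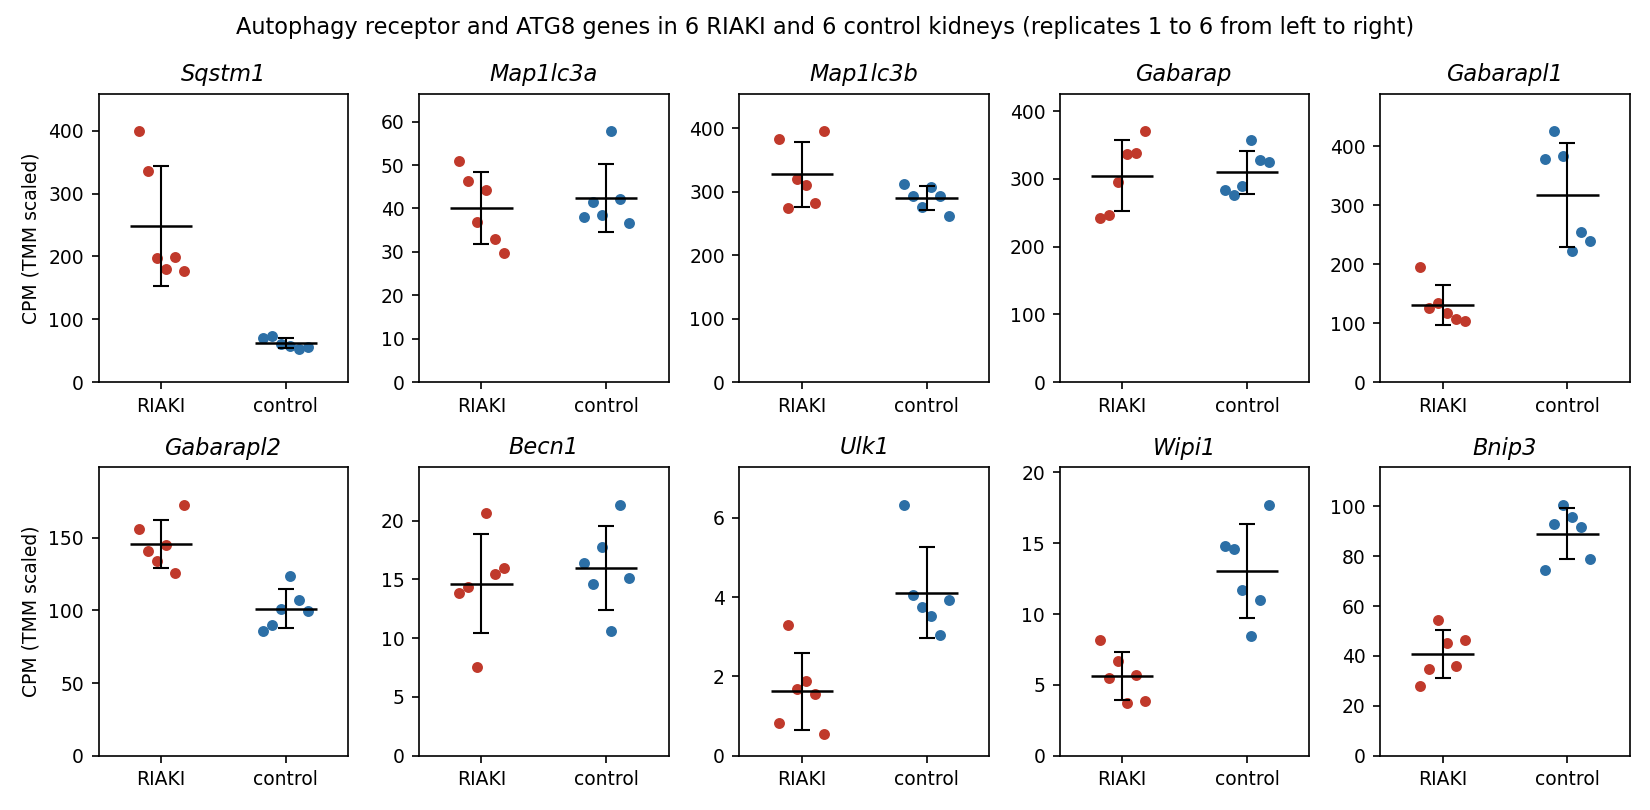
Level of each of the 10 genes in CPM (TMM scaled) in 6 RIAKI and 6 control kidneys, with replicates 1 to 6 from left to right, the mean as a line and the SD as bars. Sqstm1 lay at 177 to 399 CPM in RIAKI and at 53.1 to 73.1 CPM in control, and Gabarapl1 lay at 103 to 194 CPM in RIAKI and at 223 to 425 CPM in control.

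Sqstm1 (ENSMUSG00000015837, chr11:50199366-50210827, minus strand) encodes p62, which gathers ubiquitinated cargo and also binds KEAP1, the inhibitor of NRF2. The lowest, median and highest levels were 177, 199 and 399 CPM in RIAKI, against 53.1, 58.8 and 73.1 CPM in control. Every RIAKI kidney lay above every control kidney. The means were 248 ± 95.3 CPM in RIAKI and 61.8 ± 8.19 CPM in control (SD, n = 6 each), a 4.01-fold difference. The log2 fold change was 2.0 (SE 0.19, 95% confidence interval 1.62 to 2.39), and edgeR's quasi-likelihood F test gave an adjusted p-value of 6.4e-10. Within RIAKI, replicates 1 and 2 were highest at 399 and 337 CPM, while replicates 3 to 6 lay between 177 and 199 CPM. Within control, replicates 1 and 2 had 70.7 and 73.1 CPM, and replicates 3 to 6 had 53.1 to 60.4 CPM. Without the libraries numbered 1 and 2, the log2 fold change of Sqstm1 was 1.75 (edgeR's quasi-likelihood F test, adjusted p-value 5.41e-11). Mrnip overlaps Sqstm1 on the other strand and had 16 counts in RIAKI and 84 in control. Sqstm1 itself had 2822 counts in RIAKI and 697 in control.

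Reads in introns, which can come from unspliced RNA, gave a sparse readout of the same genes that was counted apart from the exons. Sqstm1 had 100 intron counts in RIAKI and 58 in control, a log2 fold change of 0.82 (SE 0.34) that did not pass the test (adjusted p of 0.124 over 10182 genes, edgeR's quasi-likelihood test). Of the 10 members, 4 had at least 10 intron counts in all, and 0 were called in either direction by this test, where 3.14% of tested genes were higher and 5.31% lower. At an unadjusted p under 0.05 there was 1 member, Sqstm1 (unadjusted p of 0.0153 from the same edgeR test). With normalization factors taken from the intron counts themselves the same tool called 1 member, again Sqstm1 (log2 fold change 0.90, adjusted p of 0.0372). Without RIAKI replicate 5 Sqstm1 was also called (1.03, adjusted p of 0.0386). Wipi1 had 18 intron counts in RIAKI and 20 in control, Gabarapl1 had 6 in RIAKI and 13 in control, and Becn1 had 7 in RIAKI and 10 in control. The standard errors of these 3 genes were 0.55 to 0.77 on the log2 scale, and none was called.

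The 5 ATG8 genes did not move together. GABARAPL1 and GABARAPL2 belong to the GABARAP family, which acts in autophagosome closure and in receptor traffic. Gabarapl1 (ENSMUSG00000030161, chr6:129533160-129542346, plus strand) had a lowest level of 103, a median of 122 and a highest level of 194 CPM in RIAKI, against 223, 317 and 425 CPM in control. The highest RIAKI kidney lay below the lowest control kidney. The means were 131 ± 33.4 CPM in RIAKI and 317 ± 87.9 CPM in control (SD, n = 6 each). The log2 fold change was −1.28 (SE 0.18, 95% confidence interval −1.64 to −0.92), and edgeR's quasi-likelihood F test gave an adjusted p-value of 9.04e-07. The control kidneys were spread out, as replicates 1 to 3 had 379 to 425 CPM and replicates 4 to 6 had 223 to 255 CPM. Without the libraries numbered 1 and 2, Gabarapl1 had a log2 fold change of −1.24 and Gabarapl2 one of 0.45, and both kept their calls.

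Gabarapl2 (ENSMUSG00000031950, chr8:111940703-111953612, plus strand), also known as GATE-16, went the other way. The lowest, median and highest levels were 126, 143 and 173 CPM in RIAKI, against 85.5, 100.2 and 123 CPM in control. The groups did not overlap, with a narrow gap between the lowest RIAKI and the highest control kidney. The log2 fold change was 0.53 (SE 0.13, 95% confidence interval 0.26 to 0.81), from means of 146 ± 16.7 CPM in RIAKI and 101 ± 13.4 CPM in control (SD, n = 6 each). The adjusted p was 0.00227 (edgeR's quasi-likelihood test). This is a 1.45-fold difference.

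Map1lc3a, Map1lc3b and Gabarap were not called. Map1lc3b (ENSMUSG00000031812, chr8:121590361-121598760, plus strand), the LC3 gene most often read as an autophagosome marker, had a lowest, median and highest level of 274, 316 and 395 CPM in RIAKI, against 262, 293 and 311 CPM in control. The ranges overlapped, and the log2 fold change was 0.17 (95% confidence interval −0.10 to 0.45, adjusted p of 0.342). Gabarap (ENSMUSG00000018567, chr11:69991143-69994951, plus strand), which names the family, had 243, 316 and 370 CPM in RIAKI, against 276, 307 and 357 CPM in control. Its log2 fold change was −0.02 (95% confidence interval −0.31 to 0.26, adjusted p of 0.917). In RIAKI, Gabarap was lowest in replicates 1 and 2, the kidneys with the highest Sqstm1, at 243 and 247 CPM, and had 295 to 370 CPM in replicates 3 to 6. The same held in control, where replicates 1 and 2 had 284 and 276 CPM of Gabarap and replicates 3 to 6 had 289 to 357 CPM. This pattern thus followed the libraries numbered 1 and 2 in both groups. Map1lc3a (ENSMUSG00000027602, chr2:155276297-155278073, plus strand), the less abundant LC3 gene here, had 29.8, 40.6 and 51.0 CPM in RIAKI, against 36.8, 39.9 and 57.8 CPM in control. Its log2 fold change was −0.06 (95% confidence interval −0.39 to 0.26, adjusted p of 0.793, edgeR's quasi-likelihood test as for the other ATG8 genes). The intervals of these 3 genes leave room for differences of up to 0.45 on the log2 scale. Gm20388, on the same strand, and Zcchc14, on the other, overlap Map1lc3b and had 87 and 96 counts in RIAKI and 72 and 123 in control, against 3578 counts of Map1lc3b in RIAKI and 3217 in control.

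**Figure D2:**
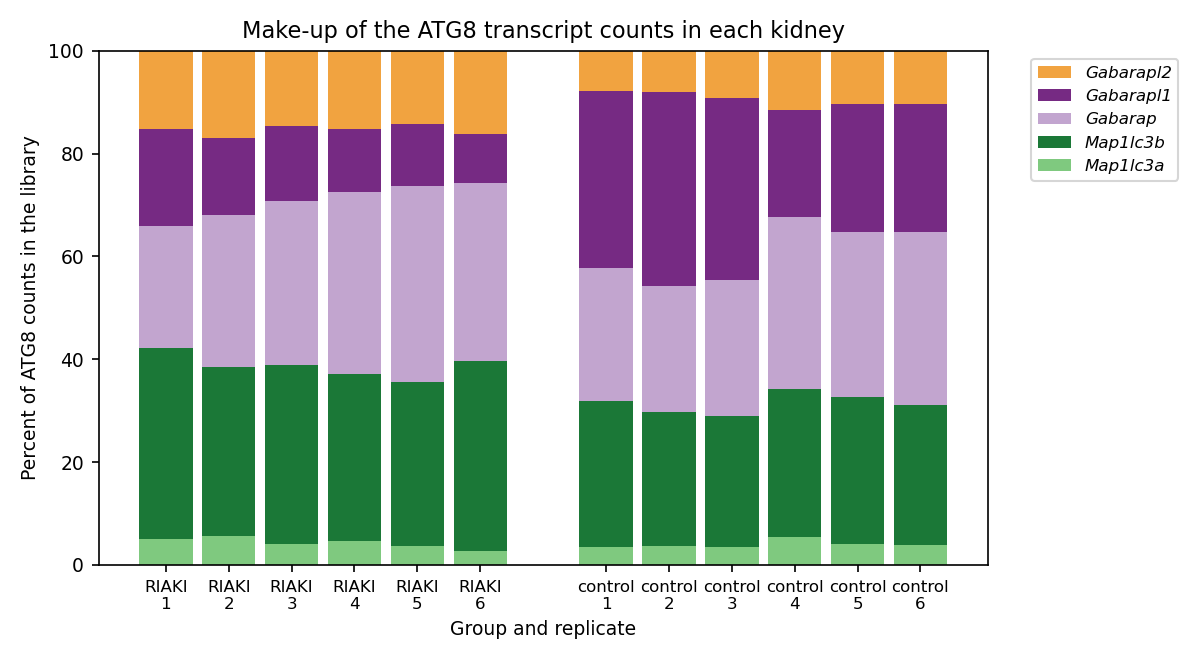
Share of each of the 5 ATG8 genes, in percent of their summed counts (vertical axis), in each of 6 RIAKI and 6 control kidneys. Gabarapl1 took 9.63% to 18.9% of the ATG8 counts in RIAKI kidneys and 20.8% to 37.7% in control kidneys.

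Because 1 molecule gives 1 tag at the 3′ end whatever the length of the transcript, the levels of the 5 genes can be added within a kidney. Their sum was 948 ± 88.5 CPM in RIAKI and 1061 ± 58.9 CPM in control (SD, n = 6 each), with ranges of 833 to 1071 CPM in RIAKI and 962 to 1127 CPM in control that overlapped. Gabarapl1 made up 13.8% ± 3.19 of the ATG8 counts in RIAKI and 29.7% ± 6.98 in control. Gabarapl2 made up 15.4% ± 1.01 in RIAKI and 9.56% ± 1.48 in control, and its ranges of 14.2% to 16.9% in RIAKI and 7.79% to 11.5% in control did not overlap. In control kidneys Gabarapl1 was therefore counted more often than Gabarapl2, and in RIAKI kidneys the pair was counted about equally. Map1lc3b made up 34.4% ± 2.34 in RIAKI and 27.4% ± 1.42 in control, Gabarap 32.2% ± 5.11 in RIAKI and 29.4% ± 4.15 in control, and Map1lc3a 4.28% ± 0.985 in RIAKI and 4.00% ± 0.727 in control (SD, n = 6 each). The share of Map1lc3b, at 31.8% to 37.3% in RIAKI and 25.4% to 28.8% in control, did not overlap either. A share depends on the other genes of the sum, so this larger share does not by itself show a rise of its level. The level of Map1lc3b was not called, and a small rise is not excluded.

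**Figure D3:**
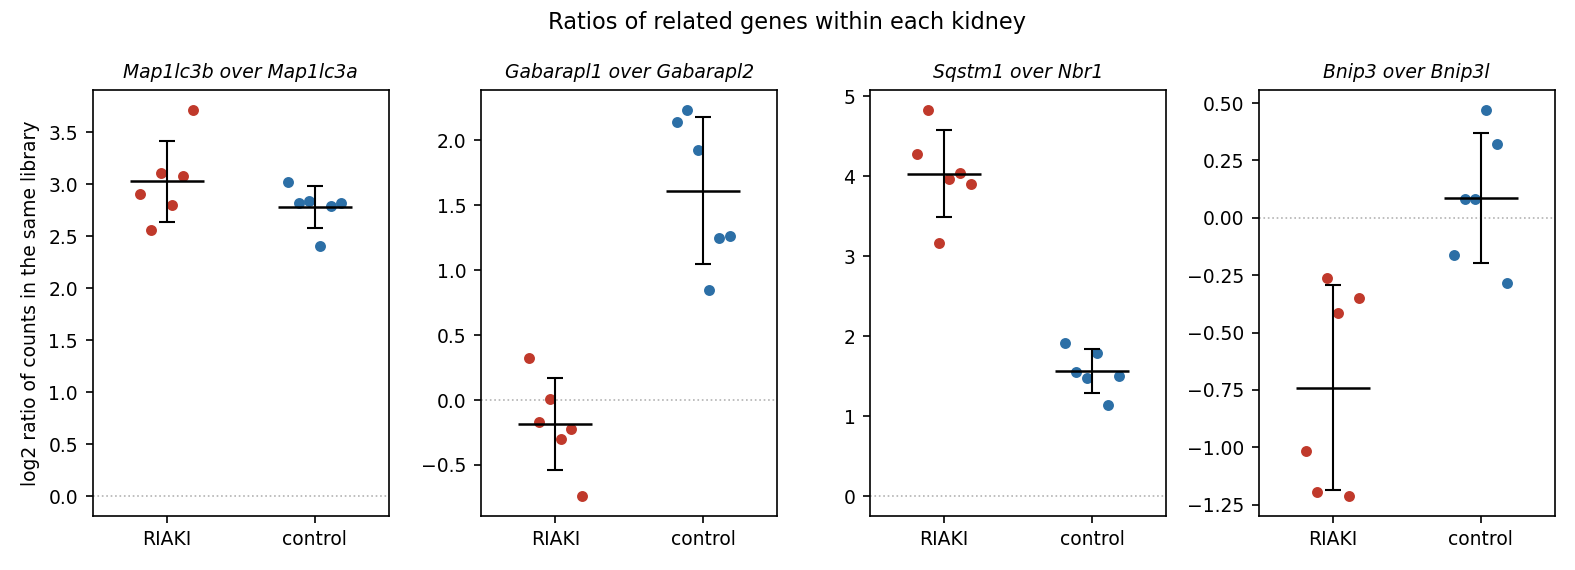
Ratio of the counts of related genes within each kidney on a log2 scale (0.5 added to each count), in 6 RIAKI and 6 control kidneys with the mean as a line and the SD as bars. The ratio of Gabarapl1 to Gabarapl2 was −0.18 in RIAKI and 1.61 in control on average, and the ratio of Sqstm1 to Nbr1 was 4.03 in RIAKI and 1.57 in control.

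Ratios within a kidney ask whether related genes differed in their change, without any scaling between libraries. For 6 against 6 kidneys the smallest p that the 2-sided exact permutation test can give is 0.00216, and p-values were adjusted over 4 ratios. The log2 ratio of Gabarapl1 to Gabarapl2 was −0.18 ± 0.35 in RIAKI and 1.61 ± 0.57 in control (SD, n = 6 each), a difference of −1.80 (exact p of 0.00216, adjusted 0.00433). Its values of −0.74 to 0.32 in RIAKI and 0.85 to 2.24 in control did not overlap. The levels of both genes were already apart between the groups, in opposite directions. The separation of this ratio and its p therefore follow from those levels and add no further support. NBR1 is a receptor related to p62 in its domains and binds the same kind of cargo. The log2 ratio of Sqstm1 to Nbr1 was 4.03 ± 0.54 in RIAKI and 1.57 ± 0.27 in control (SD, n = 6 each), a difference of 2.46 (exact p of 0.00216, adjusted 0.00433), without overlap. BNIP3L, also called NIX, is the closest relative of BNIP3. The log2 ratio of Bnip3 to Bnip3l was −0.74 ± 0.45 in RIAKI and 0.09 ± 0.28 in control (SD, n = 6 each), a difference of −0.83 (exact permutation test, p of 0.00433, adjusted 0.00577), and the highest RIAKI kidney, at −0.26, just passed the lowest control kidney, at −0.28. The ratio of Map1lc3b to Map1lc3a was 3.03 ± 0.39 in RIAKI and 2.78 ± 0.20 in control (SD, n = 6 each), and its difference of 0.25 did not pass the exact permutation test (p of 0.203, adjusted 0.203). Without RIAKI replicate 2 this difference was 0.34 and passed (exact permutation test, adjusted p of 0.0433). In the 4 RIAKI and 4 control kidneys not numbered 1 or 2, the first 3 differences were −1.64, 2.29 and −0.71 and none passed (adjusted exact p of 0.0571, 0.0571 and 0.0762). The unadjusted exact p of the first 2 was 0.0286, the smallest that the test can give with so few kidneys. The number of kidneys thus limits what this test can pass after adjustment.

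Bnip3 (ENSMUSG00000078566, chr7:138890836-138909519, minus strand) sits in the outer mitochondrial membrane and marks mitochondria for autophagy. The lowest, median and highest levels were 28.1, 40.5 and 54.4 CPM in RIAKI, against 74.4, 92.3 and 100.7 CPM in control. No RIAKI kidney reached the lowest control kidney. The means were 40.8 ± 9.53 CPM in RIAKI and 89.1 ± 10.2 CPM in control (SD, n = 6 each), with a log2 fold change of −1.14 (SE 0.16, 95% confidence interval −1.46 to −0.83), and the adjusted p-value by edgeR's quasi-likelihood F test was 6.05e-07. The antisense gene Gm45507 had 1 count in RIAKI and 11 in control, against 423 of Bnip3 in RIAKI and 991 in control. In these kidneys 14 of 15 proximal tubule markers were also lower, with a median log2 fold change of −1.97 and 0 of the 15 higher. Their part in the levels of Bnip3 and of the other lower members was not tested. Markers of the thick ascending limb (5 of 6 lower), the distal convoluted tubule (4 of 5 lower) and principal cells (5 of 6 lower) moved with them.

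Of the 3 upstream members, Wipi1 and Ulk1 were lower and Becn1 was not called. Wipi1 (ENSMUSG00000041895, chr11:109573331-109611967, minus strand) encodes a protein that reads the lipid made by the Beclin 1 complex. The lowest, median and highest levels were 3.75, 5.59 and 8.15 CPM in RIAKI, against 8.46, 13.2 and 17.7 CPM in control, from 62 counts in RIAKI and 146 in control. The groups came close to each other without overlapping. The means were 5.61 ± 1.68 CPM in RIAKI and 13.0 ± 3.30 CPM in control (SD, n = 6 each), with a log2 fold change of −1.20 (SE 0.25, 95% confidence interval −1.70 to −0.69), and the adjusted p-value by edgeR's quasi-likelihood F test was 0.000252.

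Ulk1 (ENSMUSG00000029512, chr5:110784488-110810097, minus strand), the kinase that starts autophagy when nutrients are short, was the least counted member. It had 1 to 6 counts per library in RIAKI and 5 to 12 in control. The lowest, median and highest levels were 0.552, 1.61 and 3.31 CPM in RIAKI, against 3.05, 3.84 and 6.33 CPM in control. The groups overlapped through 1 RIAKI kidney, and the other 5 lay below every control kidney. The log2 fold change was −1.35 (SE 0.41, 95% confidence interval −2.18 to −0.52), and edgeR's quasi-likelihood F test gave an adjusted p-value of 0.00949. Without the libraries numbered 1 and 2 the estimate was −1.31 and the call was lost (adjusted p of 0.0671). Becn1 (ENSMUSG00000035086, chr11:101285952-101302286, minus strand), the scaffold of the lipid kinase complex, had 7.53, 14.9 and 20.6 CPM in RIAKI, against 10.6, 15.7 and 21.4 CPM in control. These ranges overlapped widely, and the log2 fold change was −0.12 (95% confidence interval −0.54 to 0.31, adjusted p of 0.706). Becn1 had 161 counts in RIAKI and 178 in control.

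**Figure D4:**
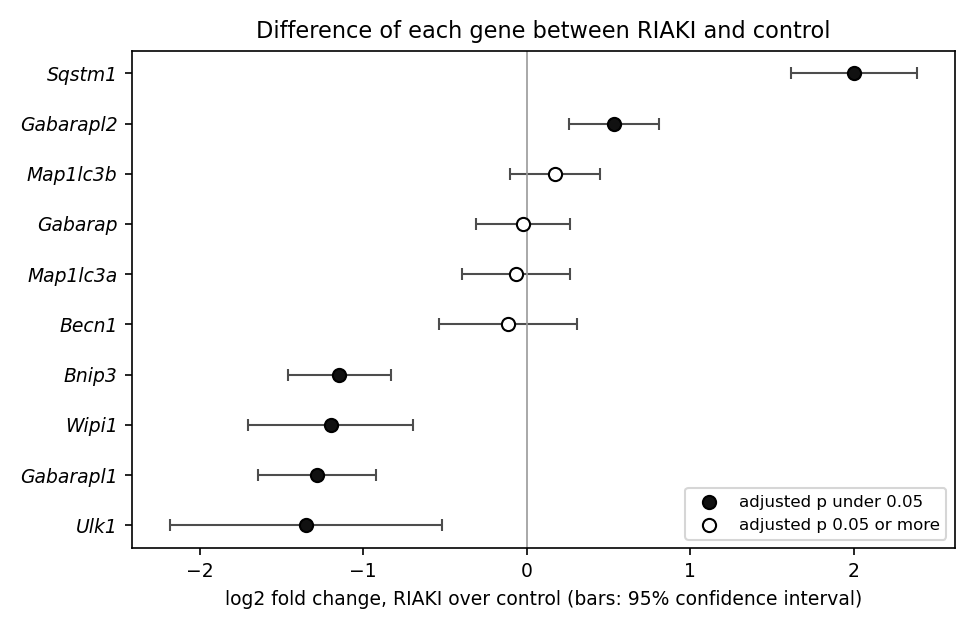
Log2 fold change of RIAKI over control for the 10 genes (horizontal axis), with 95% confidence intervals as bars, from 6 RIAKI and 6 control kidneys. Filled points mark the 6 genes with an adjusted p under 0.05, from 2.0 for Sqstm1 to −1.35 for Ulk1, and open points the 4 genes that were not called.

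The order of the members by level (3′ tag counts in CPM) differed between the groups. In RIAKI, Map1lc3b, Gabarap and Sqstm1 stood at the top, followed by Gabarapl2 and Gabarapl1, then Bnip3 and Map1lc3a, then Becn1 and Wipi1, and Ulk1 last. In control, Gabarapl1, Gabarap and Map1lc3b stood at the top, followed by Gabarapl2 and Bnip3, then Sqstm1 and Map1lc3a, then Becn1 and Wipi1, and Ulk1 last. Neighbours within each of these steps overlapped in their ranges. The steps themselves did not, except that Gabarapl1 in RIAKI reached 194 CPM in replicate 1, above the lowest Sqstm1 level of 177 CPM. Sqstm1 thus had 1 of the 3 highest levels in RIAKI and stood below Bnip3 in control.

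Other genes of the pathway and genes linked to it were read from 9 lists written from textbook knowledge, with earlier results of these data known. Of 100 such genes tested, the test called 19 higher and 14 lower and left 67 uncalled, with a median log2 fold change of −0.004. Of all tested genes 17.4% were higher and 18.8% lower, so the counts over the 9 lists lay near this background and are given as a description. The KEAP1-NRF2 list, whose 9 genes include antioxidant targets of NRF2, gave 8 of the 19 higher calls. The total of higher calls therefore does not describe the autophagy genes alone. Among 19 receptors other than the members, 0 were higher and 5 were lower. Calcoco1, a receptor for the endoplasmic reticulum and Golgi, had 2.43 ± 1.11 CPM in RIAKI and 8.53 ± 3.52 CPM in control (log2 fold change −1.81, SE 0.34). Sec62, a receptor used when the endoplasmic reticulum recovers from stress, had 95.6 ± 15.5 CPM in RIAKI and 183 ± 25.3 CPM in control (−0.94, SE 0.14). Neither overlapped between the groups (SD, n = 6 each). Ccpg1 was lower by the same test, but only 33.4% of its reads mapped to a single place, so its value is uncertain. Nbr1, at 14.7 ± 4.93 CPM in RIAKI and 20.8 ± 3.26 CPM in control, was lower as well (−0.51, SE 0.20, adjusted p-value 0.0443, edgeR's quasi-likelihood test), and so was Wdfy3 (−0.90). Bnip3l was not called, at −0.32 (SE 0.14, adjusted p of 0.0836).

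**Figure D5:**
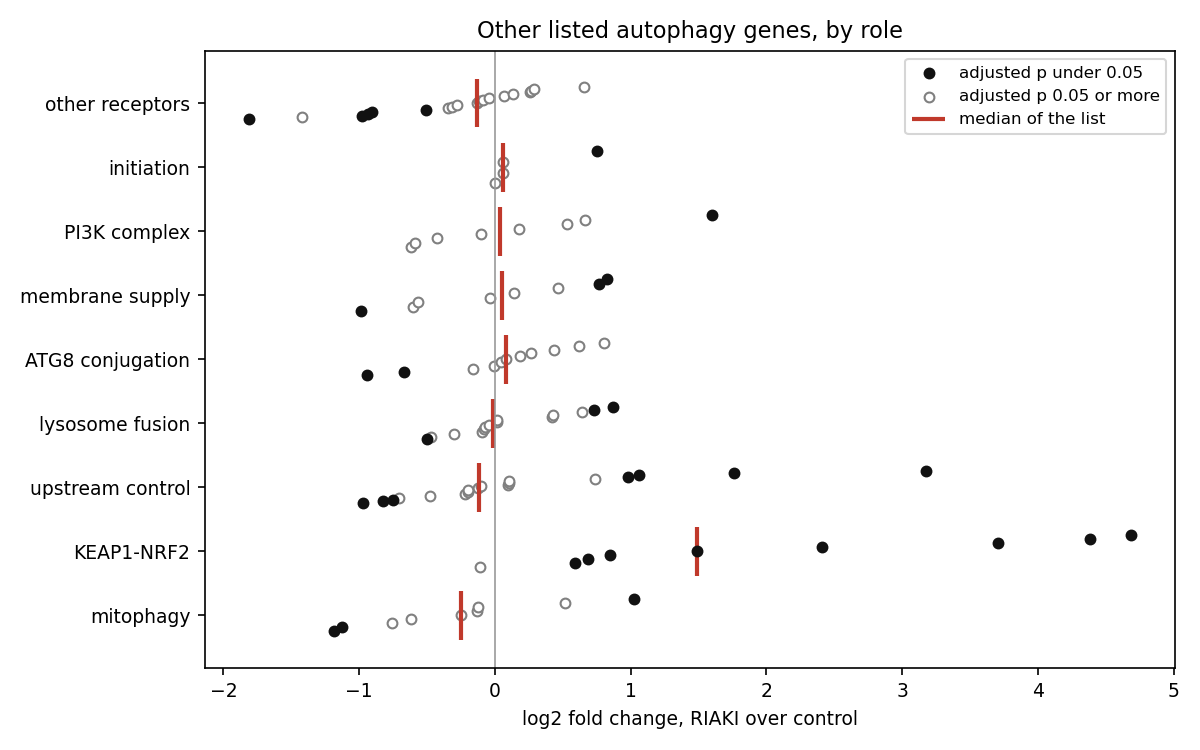
Log2 fold change of RIAKI over control (horizontal axis) for each tested gene of 9 lists of autophagy and related genes, with filled points for an adjusted p under 0.05 and a bar at the median of each list. The KEAP1-NRF2 list had a median of 1.49, and the medians of the other 8 lists lay between −0.25 and 0.08.

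Around ULK1 and Beclin 1, few genes were called, where 36.3% of all tested genes were called in either direction. The lists are short, so their counts are a description. Atg101, a partner of ULK1, was higher (0.75, SE 0.21) and the other 3 of its list were not called. Vmp1, a membrane protein of the endoplasmic reticulum needed for autophagosome formation, had 186 ± 36.3 CPM in RIAKI and 61.8 ± 11 CPM in control (SD, n = 6 each). Its log2 fold change was 1.60 (SE 0.16, adjusted p-value 1.56e-09, edgeR's quasi-likelihood test) without overlap between the groups, and the other 7 tested genes of the Beclin 1 list were not called. In the list of WIPI relatives and membrane supply, Tmem41b (0.82, SE 0.20) and Wdr45b (0.76, SE 0.22) were higher and Wdr45 (−0.99, SE 0.24) was lower. TMEM41B moves lipids between membrane leaflets, and WDR45 and WDR45B are relatives of WIPI1. Of 11 enzymes that process ATG8 proteins and join them to lipid, 0 were higher and 2 were lower, the protease gene Atg4d (−0.67, SE 0.17) and Atg10 (−0.94, SE 0.30). Of 14 genes of fusion with lysosomes, the SNARE genes Snap29 (0.87, SE 0.23) and Ykt6 (0.73, SE 0.20) were higher and Vamp8 (−0.50, SE 0.15) was lower.

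Of 18 tested genes that control the pathway from upstream, 4 were higher and 3 lower. Among all tested genes 17.4% were higher and 18.8% lower, so the counts of this list lay near the background and are a description. Atf4, a transcription factor of the integrated stress response, had 50.1 ± 12.3 CPM in RIAKI and 14.7 ± 2.57 CPM in control (SD, n = 6 each; log2 fold change 1.76, SE 0.18). Its target Trib3 (3.18, SE 0.52), the AMPK subunit gene Prkaa1 (1.06, SE 0.32) and Ddit4 (0.98, SE 0.35) were also higher. These genes were sparsely counted. Trib3 had 70 counts in RIAKI and 7 in control, Prkaa1 had 86 and 40, and Ddit4 had 65 and 33. The other catalytic AMPK subunit gene, Prkaa2 (−0.97, SE 0.16), Foxo3 (−0.75, SE 0.19) and Mtor (−0.82, SE 0.23) were lower. Of 9 genes of the KEAP1-NRF2 list, which holds the partner of p62 and targets of NRF2, 8 were higher and 0 were lower, with a median log2 fold change of 1.49. Hmox1, the heme-degrading enzyme, had 135 ± 71.6 CPM in RIAKI and 6.49 ± 0.737 CPM in control (SD, n = 6 each; 4.39, SE 0.29). Srxn1 (3.71, SE 0.25) and Txnrd1 (2.41, SE 0.18), which reduce oxidized proteins, did not overlap between the groups. Keap1 was the gene of this list that was not called (−0.11, SE 0.21). Of 9 further mitophagy genes, the porin gene Vdac1 (−1.13, SE 0.17) and the kinase gene Pink1 (−1.18, SE 0.18) were lower and the phosphatase gene Pgam5 (1.02, SE 0.29) was higher. Wdfy3, Ddit4 and Keap1 were singled out after their values were seen.

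Markers of other cells were read as well, where 17.4% of all tested genes were higher and 18.8% lower in RIAKI. Counts near these shares, such as that of the podocyte markers, do not set a cell type apart from other genes. Neutrophil markers summed to 17.1 to 49.4 CPM in RIAKI and 2.12 to 5.25 CPM in control, with 3 of 4 tested genes higher and 1 of 7 listed genes at 0. Macrophage markers summed to 60.6 to 91.6 CPM in RIAKI and 31.7 to 53.8 CPM in control, with 3 of 7 tested genes higher and 1 lower. Podocyte markers were higher in 1 of 6, fibroblast markers higher in 2 and lower in 2 of 7, intercalated cell markers lower in 3 of 6 and erythroid markers lower in 4 of 5. Endothelial markers summed to 73.6 to 88.1 CPM in RIAKI and 69.8 to 93.4 CPM in control, and edgeR's quasi-likelihood test called 0 of 7. Of 6 skeletal muscle markers 4 were at 0 in every library, and 1 of 7 lymphocyte markers reached the minimum count. Of the injured tubule markers, 9 of 10 were higher with a median log2 fold change of 3.61. The part of any of these cells in the levels of Sqstm1 and Gabarapl2 was not tested.

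Across the 12 libraries, the genes whose log2 CPM ran most alike with each member were found among 7125 genes with a mean of at least 10 counts. After the group means were subtracted, so that only the spread within groups counts, the leading gene for Sqstm1 was Zbtb38 (Pearson r = 0.92 over 12 libraries), for Gabarapl1 Degs1 (0.92), for Gabarapl2 Zcrb1 (0.92), for Bnip3 Fam173a (0.91), for Wipi1 Fbxw8 (0.92) and for Gabarap Dpm3 (0.97). These are the highest of 7125 values each, they share library, depth and the libraries numbered 1 and 2, and they are a description only. Without that subtraction the leading gene was Cdkn1a for Sqstm1, Gas1 for Gabarapl1, Erh for Gabarapl2 and Lrrc19 for Bnip3.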

How the data were processed

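RNA of 12 mouse kidneys was made into 3′ libraries with the QIAseq UPX kit, sequenced on an Illumina instrument. Per the study's methods, the authors demultiplexed with bcl2fastq, and in CLC Genomics Workbench 21.0.4 trimmed reads, collapsed them by molecular index, mapped them to GRCm38 and counted them with Ensembl annotation. The deposited files hold whole-number counts of exon, unique exon and intron reads per gene and library. Whether counting used the strand was not given in the sources used here.

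Total exon counts were tested with edgeR 4.0.16 (R 4.3.3; TMM, quasi-likelihood test, at least 10 counts summed over 12 libraries, Benjamini-Hochberg adjustment over 13536 genes, threshold 0.05). CPM values use the TMM-scaled library sizes. Ratios used 0.5 added to each count and scipy 1.17.1. Alternatives were the exact test, limma 3.58.1 voom, DESeq2 1.42.0, other scalings and filters, a threshold of 0.01, unique reads and leaving out each library. The test was checked on simulated counts. The text names all members, up to 3 called genes per direction of each list with the smallest p, the ratio genes and the closest genes by correlation. The members and lists were chosen with earlier results of these data known. Promoters are RefSeq's for GRCm38.p6, and protein sequences were not used here. Intervals are for the difference between the groups, given the spread between libraries. Each SE was derived from the log2 fold change and the F statistic of the test. Counts of a few molecules limit the precision for Ulk1 and for intron reads.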

Additional observations from a re-analysis of the deposited data

Results flagged for a closer look

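Among 20 groups of 6 values (10 genes in RIAKI and in control), 3 held a kidney far from the others by Dixon's test, where chance gives about 1 in 20 groups. Gabarapl1 was at 194 CPM in RIAKI replicate 1, and the other RIAKI kidneys had 103 to 135 CPM. Map1lc3a was at 57.8 CPM in control replicate 4, and the other controls had 36.8 to 42.1 CPM. Ulk1 was at 6.33 CPM in control replicate 1, and the other controls had 3.05 to 4.06 CPM. Gabarapl1 and Ulk1 kept their calls when that kidney was left out.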

How the results depend on the processing

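Under 26 alternatives, Sqstm1 and Gabarapl2 were called higher and Gabarapl1, Bnip3 and Wipi1 lower in each, with log2 fold changes of 1.75 to 2.13 for Sqstm1, 0.45 to 0.61 for Gabarapl2, −1.40 to −1.18 for Gabarapl1, −1.23 to −1.0 for Bnip3 and −1.34 to −1.11 for Wipi1. Ulk1 was not tested with edgeR's own low-count filter and was not called in the 8 libraries not numbered 1 or 2, an alternative chosen after seeing the data (−1.31, adjusted p of 0.0671). Those 8 libraries gave ratio differences of −1.64 for Gabarapl1 over Gabarapl2 (adjusted exact p of 0.0571), 2.29 for Sqstm1 over Nbr1 (0.0571) and −0.71 for Bnip3 over Bnip3l (0.0762). The unadjusted exact p of the first 2 was 0.0286, the smallest that the test can give with 8 libraries. Of the 4 members not called, Map1lc3b (0.11 to 0.24) and Becn1 (−0.22 to −0.0094) kept their sign, and Map1lc3a and Gabarap changed it: with total counts as the only scaling Map1lc3a was at 0.034 and Gabarap at 0.028, in the 8 libraries Gabarap was at 0.069, and leaving out 1 library gave −0.12 to 0.035 for Map1lc3a, −0.087 to 0.066 for Gabarap and −0.33 to 0.062 for intron reads of Wipi1. The number of members higher in introns was 1 with intron-based scaling and 0 to 1 when 1 library was left out. The ratio of Map1lc3b to Map1lc3a differed by 0.11 to 0.34 when 1 library was left out, and passed the exact permutation test without RIAKI replicate 2 (0.34, adjusted p of 0.0433). Samples with the same replicate number did not deviate together in every pair (correlations of −0.16 to 0.31), so the numbers were not used to pair them. With the replicate block, 2 members were higher and 4 lower, and 2398 genes were higher and 2563 lower. The number of genes called ranged from 1672 to 2398 higher and from 1832 to 2620 lower over all alternatives. Depth limits Ulk1 (17 counts in RIAKI and 46 in control) and the intron reads of every member except Sqstm1.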
